A study of Oryzias latipes with 50 samples.

Results

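The genes described are the immediate early genes fos, jun, junb, jund, egr1, klf2, dusp1, nr4a1, npas4 and ier2 in the brain of the medaka, Oryzias latipes, a small freshwater fish. Rows of the deposited expression table were taken where the symbol was one of these 10 names, in any case and with or without an a or b suffix, or where a row with a LOC number was described by the full name of the gene. The rows also needed a mean of at least 1 FPKM, read fragments scaled by transcript length and by library size. In all, 21 of the 23455 rows were taken, and all 21 passed the minimum level. Of these, 9 were found by symbol, 11 by description and 1 carried the symbol c-fos, which was added although it is spelled with a hyphen. The suffix rule also took in fosb, which in other vertebrates is a separate gene from fos. Several genes are present as more than 1 copy, and a copy without its own symbol is named here by its LOC number. Rows described as "-like", jund LOC111949028 and npas4 LOC101171356, were kept.

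Immediate early genes are transcribed within minutes of a stimulus, without the need for new protein. In neurons, calcium entry and cAMP act through kinases on transcription factors already bound at their promoters, and the messages decay quickly, so their level reflects recent activity. Fos and Jun proteins pair to form the AP-1 transcription factor, while egr1 and klf2 encode zinc finger factors, nr4a1 an orphan nuclear receptor and npas4 a factor of neurons that responds to calcium. The dusp1 product removes phosphate from MAP kinases and so limits the signal that induces these genes. In fish as in rodents, fos and egr1 messages are widely used as markers of recently active neurons.

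Hypothalamus, pituitary and the ventral part of the telencephalon were dissected together from medaka that lived outdoors in Okazaki, Japan, through the natural seasons. Sampling was monthly, near 8 pm, and gave 25 dates between September 2015 and September 2017, each with 2 RNA-seq libraries. The groups compared were summer (June to August, 6 dates) against winter (December to February, 6 dates), falling days (August to October, 7 dates) against rising days (February to April, 6 dates), and the second year (October 2016 to September 2017) against the first (October 2015 to September 2016), with 12 dates each. The labels do not state the strain, sex or age of the fish, or how many fish went into a library, so no p-value measures the spread between fish. P-values of fits to differences between the 2 libraries of a date measure the spread of those differences. P-values of fits to date means measure the spread between those means. Each is a mean of 2 libraries, so this spread also carries part of the spread between libraries. Fits with date as a random effect or with libraries as separate samples use the single libraries. Their p-values take in the spread between the 2 libraries of a date directly. All fits treat consecutive months as independent. Markers of the 3 named parts were present, with the hypothalamic gene nkx2-1 at a mean of 3.95 FPKM, the pituitary gene pomc at 337 FPKM and dlx2, a gene of the ventral telencephalon and other ventral forebrain, at 11.1 FPKM, while the midbrain and hindbrain genes en2, pax2 and hoxb1 were between 0.021 and 0.295 FPKM. Of the same list of genes of other brain parts, tph1, a serotonin synthesis gene, was at a mean of 10.5 FPKM. The sum of FPKM ran from 278558 to 341666 per library, and relative depth, read from the value steps of 49 low genes, was 0.842 to 1.069.

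Sampling kept to the clock and not to the light. From the date and the place, 8 pm fell after sunset on all 25 dates, from 0.86 h after it in June 2016 to 3.29 h after it in November 2016. Summer dates lay 0.86 to 1.54 h after sunset and winter dates 2.33 to 3.29 h after it. The season and the time since dusk thus cannot be told apart in these data, and "dusk" describes the June and July dates better than the winter ones.

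The members differed widely in level. Since FPKM is scaled by length, levels can be set side by side. The highest was junb LOC101164062, a Jun family gene, with 26.7 to 81.6 FPKM over the 50 libraries and a mean of 48.0 FPKM. It was followed by jund (mean 23.2 FPKM), egr1 (17.6 FPKM) and ier2 (16.9 FPKM). The lowest were npas4 LOC101171356 (mean 1.44 FPKM) and junb LOC101169770 (mean 1.82 FPKM). The widest range between libraries was that of egr1 LOC101160576, whose highest value of 9.24 FPKM was 23.1 times its lowest of 0.4 FPKM. The ranges of nr4a1 (18.8 times) and c-fos (13.6 times) came next, and jun LOC101160956 had the narrowest at 2.09 times. The treatment of reads that match more than 1 copy is not stated in the labels, which leaves the values of single copies uncertain.

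Over the year, 12 of the 21 genes followed an annual cosine curve by limma's F test on log2(FPKM + 1), at an adjusted p under 0.05, where 53.4% of the 16493 genes tested did. The share among the immediate early genes was close to that of all genes. The range from trough to peak (log2) was largest in jun LOC101174822 (1.47, adjusted p = 6.43e-10), klf2 (1.32, adjusted p = 6.33e-09), dusp1 (1.01, adjusted p = 0.000346) and npas4 (0.96, adjusted p = 0.0015). Their fitted peaks fell in July for jun LOC101174822 and in August for the other three. The smallest range in the pooled fit was that of egr1, at 0.06 (adjusted p = 0.984), whose fits of single years had larger ranges and unlike peaks. Its range was 0.72 with a peak in January in the second year (adjusted p = 0.00837) and 0.79 with a peak in June in the first (adjusted p = 0.278), and the difference of these curves did not pass (adjusted p = 0.187). From July 2016 on, egr1 (0.68, adjusted p = 0.0022), c-fos (0.49, adjusted p = 0.0229) and egr1 LOC101160576 (0.48, adjusted p = 0.0285) followed an annual curve, and jund (adjusted p = 0.0593) and jund LOC111949028 (adjusted p = 0.106) missed the threshold. The median range was 0.54 over the 21 genes and 0.36 over all genes tested. In fits of each year alone, 5 of the 21 were called in both years, where 24.1% of all genes were. These were jun LOC101174822, klf2, jun and junb LOC101164062, with peaks in July of the first year and in August of the second, and egr1 LOC101160576, with a peak in July of the first year and in November of the second.

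**Figure D1:**
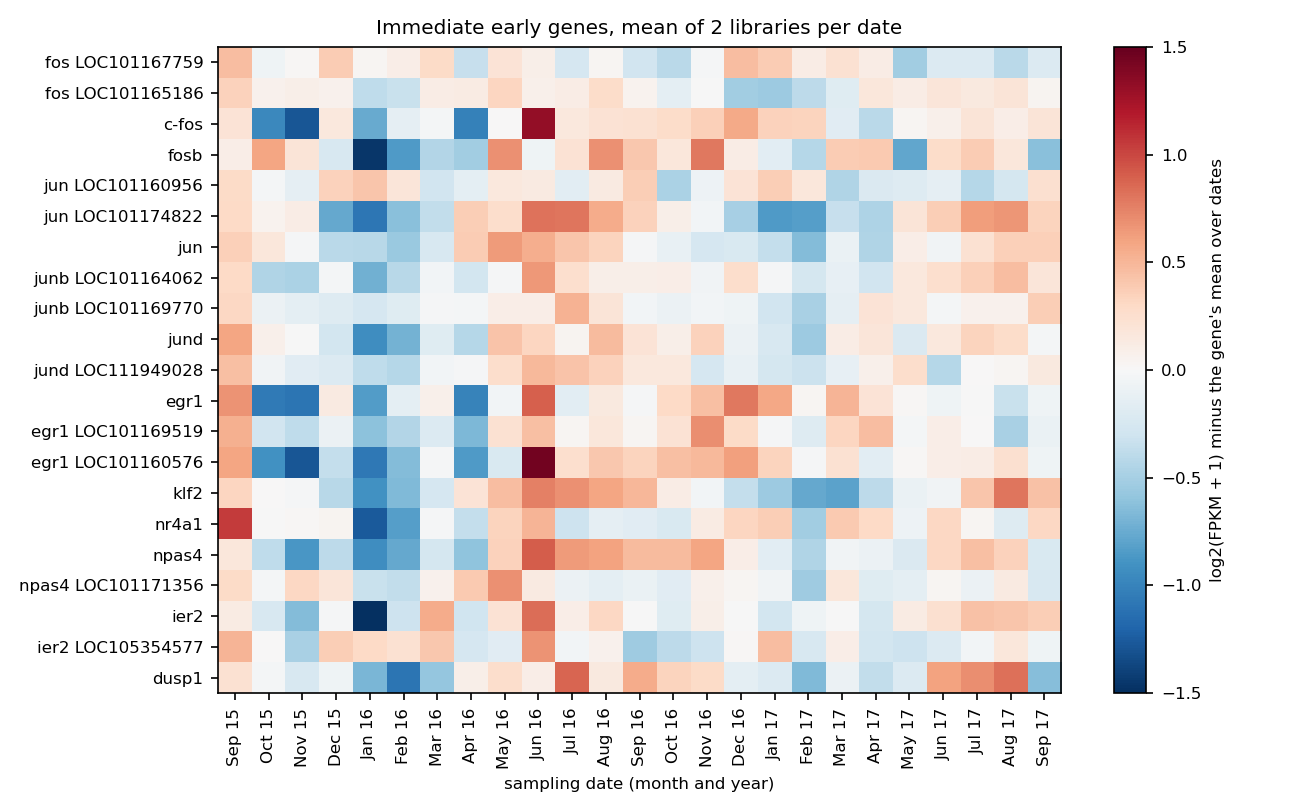
Level of each of the 21 genes by sampling date, as log2(FPKM + 1) of the mean of 2 libraries minus the gene's own mean over 25 dates (colour, red higher, blue lower). The klf2 and jun LOC101174822 rows turn blue in both winters, c-fos and egr1 LOC101160576 have their darkest red in June 2016, and January 2016 holds the lowest date mean of 8 genes.

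Most of the genes stood higher in summer than in winter, while a fos copy and a jun copy stood lower. By limma, with p-values adjusted over all 16493 genes, 14 of the 21 were called, against 54.5% of all genes. Of these, 12 were higher in summer, against 31.0% of all genes, and 2 were lower, against 23.5% of all genes. The median difference was 0.52 over the 21 genes and 0.06 over all genes tested. The summer dates were without exception above the winter dates in 9 of the 21, against 16.9% of all genes, and without exception below them in 1, against 14.1%. In this bulk tissue, fewer cells of a type and less RNA per cell cannot be told apart. Scaling the libraries by quantiles or by median ratios changed none of these 14 calls.

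Among the fos genes, the DNA-binding partners of Jun, copies went in opposite directions. Date means of fos LOC101167759 ran from 6.83 through a median of 7.95 to 10.0 FPKM in summer, against 9.56, 11.3 and 13.2 FPKM in winter. It was lower in summer by 0.40 ± 0.14 (SE) on the log2 scale (adjusted p = 0.0188), with 4 of 6 summer dates below every winter date. Date means of fos LOC101165186 ran from 8.64 through 9.27 to 10.0 FPKM in summer, against 5.28, 5.99 and 8.55 FPKM in winter. It was higher in summer by 0.52 ± 0.09 (adjusted p = 6.58e-05), and the seasons did not overlap. The fosb gene ran from 9.79 through 12.4 to 17.2 FPKM in summer, against 3.12, 7.98 and 11.2 FPKM in winter, a difference of 0.81 ± 0.26 (adjusted p = 0.0117) with 5 of 6 summer dates above every winter date. The row named c-fos ran from 4.20 through 4.55 to 11.3 FPKM in summer, against 1.91, 4.84 and 6.29 FPKM in winter, a difference of 0.27 ± 0.28 that did not pass (adjusted p = 0.425). RefSeq's annotation of assembly ASM223467v1 lists c-fos and fos LOC101167759 as neighbours with 0 genes between them. Within the dates from July 2016 alone, c-fos was lower in summer, by 0.28 on the log2 scale (adjusted p = 0.0386), and fosb no longer passed (0.50, adjusted p = 0.176). That set lacks June 2016 and January 2016, the highest summer and lowest winter date means of c-fos. Its winter is December 2016 to February 2017 alone. With only June 2016 and January 2016 left out, the c-fos difference was -0.09 (adjusted p = 0.795). The fos LOC101167759 difference also missed the threshold with July to September set against January to March (-0.31, adjusted p = 0.0672).

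All 7 jun family genes were called, 6 higher in summer and 1 lower, where 31.0% of all genes were higher and 23.5% lower. The largest summer excess of the 21 genes was that of jun LOC101174822, whose date means ran from 7.83 through 9.69 to 11.1 FPKM in summer, against 2.22, 2.93 and 3.87 FPKM in winter. The seasons were far apart, and the difference was 1.41 ± 0.13 (adjusted p = 9.18e-08). The copy jun LOC101160956 did the reverse, with 7.71, 9.55 and 11.9 FPKM in summer, against 12.1, 13.2 and 14.6 FPKM in winter. It was lower by 0.40 ± 0.12 (adjusted p = 0.00905), with all 6 summer dates below every winter date. That call was lost with July to September set against January to March (-0.04, adjusted p = 0.863). That setting adds September, with date means of 12.8 to 14.1 FPKM, and March, with 7.52 and 8.56 FPKM. By the F test of the annual curve, jun LOC101160956 did not pass (range 0.29, adjusted p = 0.218), nor did it in the first (adjusted p = 0.615) or second year alone (adjusted p = 0.294). The third copy, under the symbol jun, had 5.43, 7.50 and 8.77 FPKM in summer, against 3.27, 4.04 and 4.72 FPKM in winter, a difference of 0.74 ± 0.15 (adjusted p = 0.000162) with no overlap.

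The abundant junb LOC101164062 averaged 60.2 ± 8.4 FPKM in summer and 41.7 ± 9.99 FPKM in winter (SD, n = 6 dates each), higher by 0.55 ± 0.14 (adjusted p = 0.00226), with 3 of 6 summer dates above every winter date. Its low copy junb LOC101169770 averaged 2.12 ± 0.455 FPKM in summer and 1.36 ± 0.227 FPKM in winter, with no overlap of date means. Its single libraries did overlap, with 1.31 FPKM in one of June 2016 and 1.92 FPKM in one of December 2015. The SD of this copy between libraries of a date (0.27, log2) was above that of its date means (0.22). The jund gene, whose product is present in resting cells more than those of its relatives, averaged 27.4 ± 2.94 FPKM in summer and 16.4 ± 3.73 FPKM in winter, a difference of 0.74 ± 0.14 (adjusted p = 0.000127) with no overlap. The row jund LOC111949028 averaged 4.65 ± 1.25 and 3.11 ± 0.335 FPKM in summer and winter, higher by 0.43 ± 0.13 (adjusted p = 0.00783). Within the dates from July 2016 alone, junb LOC101164062 (0.29, adjusted p = 0.0634) and jund LOC111949028 (0.31, adjusted p = 0.14) did not pass.

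**Figure D2:**
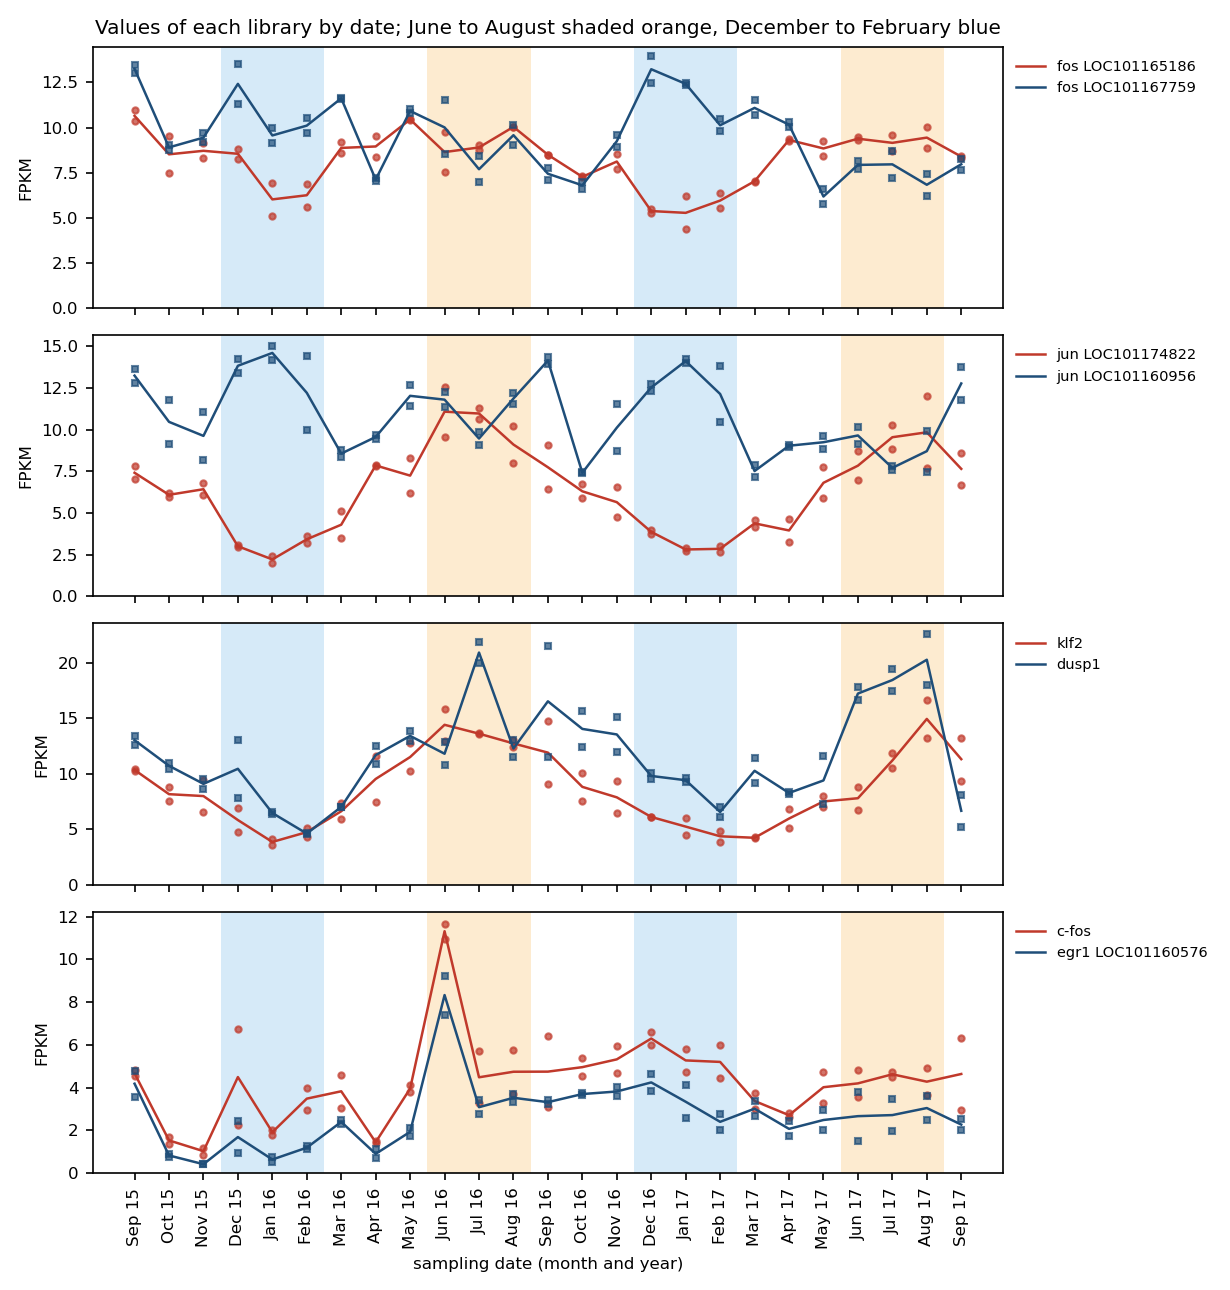
FPKM of each library (points) and date means (lines) over 25 dates, for pairs of genes, with summer dates shaded orange and winter dates blue. The jun LOC101174822 points lie at 2.02 to 3.97 FPKM in winter while jun LOC101160956 lies at 9.99 to 15.0 FPKM, c-fos and egr1 LOC101160576 peak together in June 2016, and klf2 and dusp1 have their lowest date means in January 2016 and February 2016.

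None of the 3 egr1 copies, genes of a zinc finger factor used as an activity marker, passed between the seasons. Date means of egr1 ran from 12.8 through 16.0 to 31.6 FPKM in summer, against 8.79, 17.5 and 29.2 FPKM in winter, so the seasons overlapped (difference -0.01 ± 0.30, adjusted p = 0.988). The copy egr1 LOC101169519 averaged 14.1 ± 3.05 FPKM in summer and 11.9 ± 2.89 FPKM in winter (0.23 ± 0.20, adjusted p = 0.337). The copy egr1 LOC101160576 averaged 3.89 ± 2.2 FPKM in summer and 2.24 ± 1.36 FPKM in winter (0.61 ± 0.32, adjusted p = 0.106), where the summer mean includes June 2016 at 8.33 FPKM and the other summer dates lay at 2.66 to 3.52 FPKM. Within the dates from July 2016 alone, egr1 was lower in summer, by 0.55 on the log2 scale (adjusted p = 0.0156). That set lacks June 2016 and January 2016, the highest summer and lowest winter date means of egr1, and its winter is December 2016 to February 2017 alone.

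Of the other transcription factor genes, klf2, a zinc finger gene also known from endothelium exposed to blood flow, had date means from 7.80 through 13.2 to 15.0 FPKM in summer, against 3.86, 4.99 and 6.12 FPKM in winter. It was higher in summer by 1.15 ± 0.17 (adjusted p = 6.19e-06), with no overlap. The gene npas4, which in rodents is induced selectively by calcium in neurons, had 14.0, 16.4 and 21.6 FPKM in summer, against 5.33, 7.99 and 12.0 FPKM in winter. It was higher by 0.99 ± 0.21 (adjusted p = 0.000373), again with no overlap. Its relative npas4 LOC101171356 averaged 1.40 ± 0.203 FPKM in summer and 1.15 ± 0.406 FPKM in winter and did not pass (adjusted p = 0.304). The nuclear receptor gene nr4a1 averaged 2.99 ± 0.908 FPKM in summer and 2.34 ± 1.40 FPKM in winter, and its difference of 0.36 ± 0.24 did not pass (adjusted p = 0.22).

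The phosphatase gene dusp1 had date means from 11.8 through 17.9 to 20.9 FPKM in summer, against 4.62, 8.00 and 10.5 FPKM in winter, higher by 1.02 ± 0.20 (adjusted p = 0.000123) with no overlap. The gene ier2, a nuclear protein gene of the early response, had 17.3, 21.1 and 29.7 FPKM in summer, against 5.12, 14.3 and 16.1 FPKM in winter. It was higher by 0.75 ± 0.20 (adjusted p = 0.00308) with no overlap, though the difference missed the threshold with July to September set against January to March (0.49, adjusted p = 0.0601). Its copy ier2 LOC105354577 averaged 11.7 ± 3.01 FPKM in summer and 12.4 ± 2.25 FPKM in winter (-0.08 ± 0.17, adjusted p = 0.702).

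**Figure D3:**
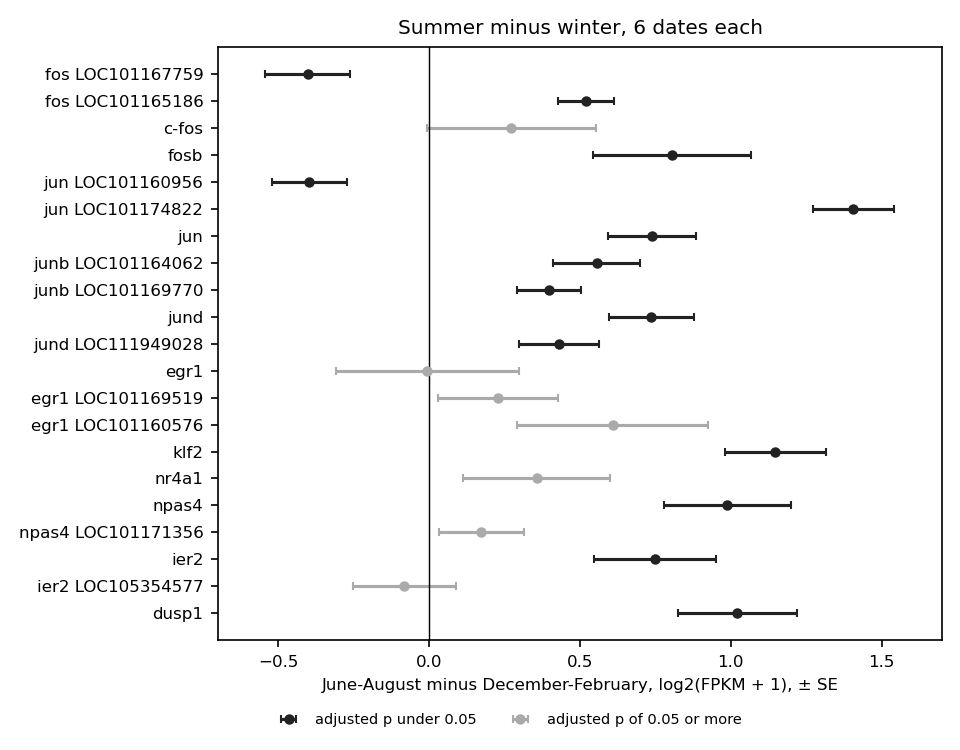
Summer minus winter difference of each of the 21 genes on the log2(FPKM + 1) scale (points, bars ± SE, 6 dates each), black where the adjusted p was under 0.05. The points of jun LOC101174822 at 1.41 and klf2 at 1.15 are farthest to the right, and fos LOC101167759 and jun LOC101160956 at -0.40 are the called points left of 0.

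Some copies of a gene changed unequally with season, by the ratio of their FPKM on each date. The ratios are given as a description, with no test, since they rest on the same dates as the differences above. Of the 13 pairs of rows under the same gene name, 5 had ratios that did not overlap between the 6 summer and 6 winter dates. The share over pairs of other genes was not calculated, and the pairs of jun rows share rows and so are not separate cases. The ratio of fos LOC101165186 to fos LOC101167759 was 0.864 to 1.38 in summer, against 0.407 to 0.688 in winter. The ratio of jun LOC101174822 to jun LOC101160956 was 0.767 to 1.24 in summer, against 0.152 to 0.309 in winter, so that the copies had near equal levels in summer and unequal levels in winter. The ratio of jun LOC101174822 to jun was 1.23 to 1.44 in summer, against 0.554 to 0.969 in winter. For jun over jun LOC101160956 it was 0.564 to 0.886 in summer, against 0.269 to 0.377 in winter. The ratio of egr1 to egr1 LOC101160576 went the other way, with 3.79 to 6.04 in summer, against 6.89 to 13.9 in winter. In the other 8 pairs, among them both junb and both jund rows, the ratios of the seasons overlapped.

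Of 48 other immediate early genes tested, 17 were higher in summer and 2 lower, with a median difference of 0.23. Over all genes, 31.0% were higher and 23.5% lower, 54.5% in all, with a median of 0.06, so fewer of this list were called than of all genes and few of its calls were lower. Among them crem (LOC101157884), a cAMP-responsive factor gene, averaged 18.7 FPKM in summer and 5.10 FPKM in winter (1.64 ± 0.19, adjusted p = 6.19e-07). The zinc finger genes egr2 (LOC101164744, 7.89 FPKM in summer and 2.25 FPKM in winter, adjusted p = 7.86e-06) and klf9 (LOC101165098, 5.92 and 3.28 FPKM in summer and winter, adjusted p = 3.85e-06) were also higher. A further klf9 row had a higher mean over all libraries, 30.6 FPKM. The clock gene per1, which early signals induce in mammals, was lower, with 2.90 FPKM in summer and 11.7 FPKM in winter (-1.73 ± 0.31, adjusted p = 6.01e-05).

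Of 42 upstream kinases and transcription factors tested, 17 were higher in summer and 6 lower, with a median difference of 0.09, a share of calls close to the 54.5% of all genes. The calcium-dependent kinase gene camk2b (LOC101170191) averaged 42.8 FPKM in summer and 15.4 FPKM in winter (1.43 ± 0.14, adjusted p = 9.18e-08). A further copy, LOC101160009, averaged 67.8 and 40.4 FPKM in summer and winter (adjusted p = 3.76e-05). The JNK gene mapk8 (LOC101158978), whose kinase phosphorylates Jun, was lower, at 21.0 FPKM in summer and 40.4 FPKM in winter (-0.91 ± 0.12, adjusted p = 1.95e-06). A further mapk8 row, LOC101164997, had a mean of 44.5 FPKM over all libraries. Of 21 corticosteroid-responsive genes, 7 were higher and 6 lower, close to the 31.0% and 23.5% of all genes. This list shares sgk1, per1 and klf9 with the other immediate early genes. It included a low glutamine synthetase copy, glul LOC101163918, with 9.06 FPKM in summer and 2.33 FPKM in winter (1.61 ± 0.15, adjusted p = 6.83e-08). The main glul row, at a mean of 635 FPKM over all libraries, is a different row. Also in the list was nr3c2, the mineralocorticoid receptor gene, with 21.4 FPKM in summer and 31.0 FPKM in winter (-0.51 ± 0.10, adjusted p = 0.000135).

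Markers of the block's cell types were among the seasonal genes, where 31.0% of all genes were higher and 23.5% lower. Of 24 neuronal markers tested, 12 were higher in summer and 2 lower, and the summed level of the list was 1740 to 2267 FPKM on summer dates, against 1565 to 1905 FPKM on winter dates. Of 15 microglial markers tested, 2 were higher and 5 lower, and their sum was 246 to 343 FPKM in summer, against 611 to 965 FPKM in winter, with no overlap. The apolipoprotein gene apoeb (LOC101161673) made up most of that sum, at 192 FPKM in summer and 619 FPKM in winter. Of 18 endothelial markers tested, 8 were higher and 1 lower, with a sum of 102 to 140 FPKM in summer and 96.7 to 107 FPKM in winter. Of 9 erythrocyte markers, 4 were higher and 4 lower, with a sum of 420 to 703 FPKM in summer and 261 to 432 FPKM in winter. The globin row hbae LOC101174997 made up the largest part of that sum, at 397.5 FPKM in summer and 192.5 FPKM in winter. Another hbae row, LOC101155030, was lower in summer, at 2.05 FPKM against 10.9 FPKM in winter. No marker of these lists was at 0 on every date. Their part in the seasonal differences of the immediate early genes was not tested.

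At matched day lengths, 5 of the 21 genes stood higher on falling days (August to October) than on rising days (February to April), where 12.9% of all genes did, and 0 stood lower, against 9.06%. In either direction 22.0% of all genes were called. For klf2, date means ran from 8.17 through 11.3 to 15.0 FPKM on falling days, against 4.24, 5.36 and 9.54 FPKM on rising days, a difference of 0.84 ± 0.18 (adjusted p = 0.00415). For jun LOC101174822 the levels were 6.09, 7.64 and 9.83 FPKM on falling days, against 2.85, 4.13 and 7.85 FPKM on rising days (0.71 ± 0.18, adjusted p = 0.0108). The dusp1 gene averaged 13.4 ± 4.32 FPKM on falling days (n = 7 dates) and 8.08 ± 2.58 FPKM on rising days (n = 6 dates), a difference of 0.64 ± 0.21 (adjusted p = 0.0335 by limma). Both jund (0.50 ± 0.17, adjusted p = 0.0335) and jun (0.48 ± 0.14, adjusted p = 0.0184) were higher as well. In none of the 21 genes were falling and rising days fully apart, against 1.31% of all genes fully above and 0.812% fully below. Falling dates lay 1.5 to 2.95 h after sunset and rising dates 1.46 to 2.46 h after it. The jund call was lost without March 2017 replicate 2 (adjusted p = 0.0527) and under quantile scaling (adjusted p = 0.052), and the dusp1 call without September 2017 replicate 2 (adjusted p = 0.0587). Within the dates from July 2016 alone, jund (0.29, adjusted p = 0.252) and dusp1 (0.60, adjusted p = 0.14) did not pass, while fos LOC101167759 was lower on falling days (-0.40, adjusted p = 0.0336) and junb LOC101164062 higher (0.40, adjusted p = 0.0143). Rising days in that set are February to April 2017 alone. The fos LOC101167759 difference also passed in the fit with the replicate block (-0.30, adjusted p = 0.0351). That fit leaves out September 2015, a falling date with the highest date mean of this gene, at 13.25 FPKM. The jund LOC111949028 row was higher with date as a random effect (0.32, adjusted p = 0.0378) and with a step at July 2016 (0.33, adjusted p = 0.0442). The npas4 gene was higher with date as a random effect (0.57, adjusted p = 0.0398).

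Between years, 1 of the 21 genes was called, lower in the second year, where 8.97% of all genes were lower and 3.01% higher. This was jun LOC101160956, with date means of 7.41 through 9.44 to 14.1 FPKM in the second year, against 8.56, 11.8 and 14.6 FPKM in the first (-0.18 ± 0.05, adjusted p = 0.0332), and the years overlapped. The call was lost under quantile or median ratio scaling, with date as a random effect (adjusted p = 0.0559), and without any of November 2015 replicate 2, February 2016 replicate 2, November 2016 replicate 1 and February 2017 replicate 1 (adjusted p = 0.0695 to 0.0835). The egr1 gene averaged 19.6 ± 4.82 FPKM in the second year and 14.9 ± 6.85 FPKM in the first (0.47 ± 0.20, adjusted p = 0.133), which did not pass. It passed with date as a random effect (adjusted p = 0.0292) and with the replicate block added to that fit (adjusted p = 0.0321). A wave of 6 months added to the annual one was called by limma in 0 of the 21, against 8.39% of all genes, with 3 at an unadjusted p under 0.05, where 23.8% of all genes were. The annual curve differed between the years, by limma, in 0 of the 21, against 0.0303% of all genes, with 9 at an unadjusted p under 0.05, where 17.9% of all genes were.

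Certain dates stood apart across many of the genes. In June 2016, 20 of the 21 genes were above their own mean over dates, and 9 had their highest date mean there. The 2 libraries of that date held 11.7 and 11.0 FPKM of c-fos, where the other summer dates averaged 4.20 to 4.74 FPKM. They held 24.5 and 38.7 FPKM of egr1, 19.2 and 23.9 FPKM of npas4, and 29.1 and 30.3 FPKM of ier2. In September 2015, all 21 genes were above their mean, with nr4a1 at 7.52 and 6.30 FPKM against its mean of 3.00 FPKM over all libraries. January 2016 was the reverse, with 3 of 21 genes above their mean and 8 at their lowest date mean. There the 2 libraries held 2.82 and 3.42 FPKM of fosb, 0.79 and 0.40 FPKM of nr4a1, and 5.49 and 4.74 FPKM of ier2. Shares of all genes were not calculated for these counts. The titles of the September 2015 libraries carry the same replicate number and are numbered last, outside the order of dates. In September 2015 the median deviation of the 21 genes was 0.33 on the log2 scale, where all genes had a median of 0.07. It was 0.52 in June 2016 and -0.72 in January 2016, where all genes had medians of 0.03 and -0.04. With both dates left out, a check added after the data were seen, the same numbers of the 21 were called as with them, 12 for the annual curve and 14 between seasons, 12 of these higher and 2 lower.

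The egr1 and c-fos genes shared their low dates in the first year. Date means of egr1 were 7.35 FPKM in October 2015, 7.15 in November 2015, 8.79 in January 2016 and 7.72 in April 2016. On the same dates c-fos was at 1.52, 1.02, 1.91 and 1.44 FPKM, and egr1 LOC101160576 at 0.82, 0.41, 0.63 and 0.895 FPKM. These were the 4 lowest date means of each of the 3 genes, and both libraries of each date were low. From July 2016 on, the date means of egr1 did not go under 12.8 FPKM, nor those of c-fos under 2.71 FPKM.

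The 2 libraries of a date could differ in many of these genes at once. In December 2015, 20 of the 21 genes were higher in replicate 1 than in replicate 2, with a median difference of 0.60 on the log2 scale, while 43.7% of all genes were higher in that library and their median difference was -0.03. Replicate 1 held 61.5 FPKM of junb LOC101164062, 13.0 of fosb, 24.1 of egr1, 6.72 of c-fos and 11.4 of npas4. Replicate 2 held 30.5 FPKM of junb LOC101164062, 4.23 of fosb, 12.0 of egr1, 2.26 of c-fos and 4.90 of npas4. In June 2016, September 2016, May 2017 and September 2017, 20 of the 21 genes were higher in replicate 2, by a median of 0.28 to 0.32, where 48.0% to 55.7% of all genes were. In September 2017, for example, ier2 stood at 14.4 and 27.8 FPKM in replicates 1 and 2, and fosb at 4.37 and 8.28 FPKM. The SD between libraries of a date had a median of 0.22 over the 21 genes and 0.14 over all genes tested, on the log2 scale, and 19 of the 21 were above the median of all genes. It was largest in nr4a1 (0.37) and c-fos (0.32) and smallest in fos LOC101167759 (0.10).

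**Figure D4:**
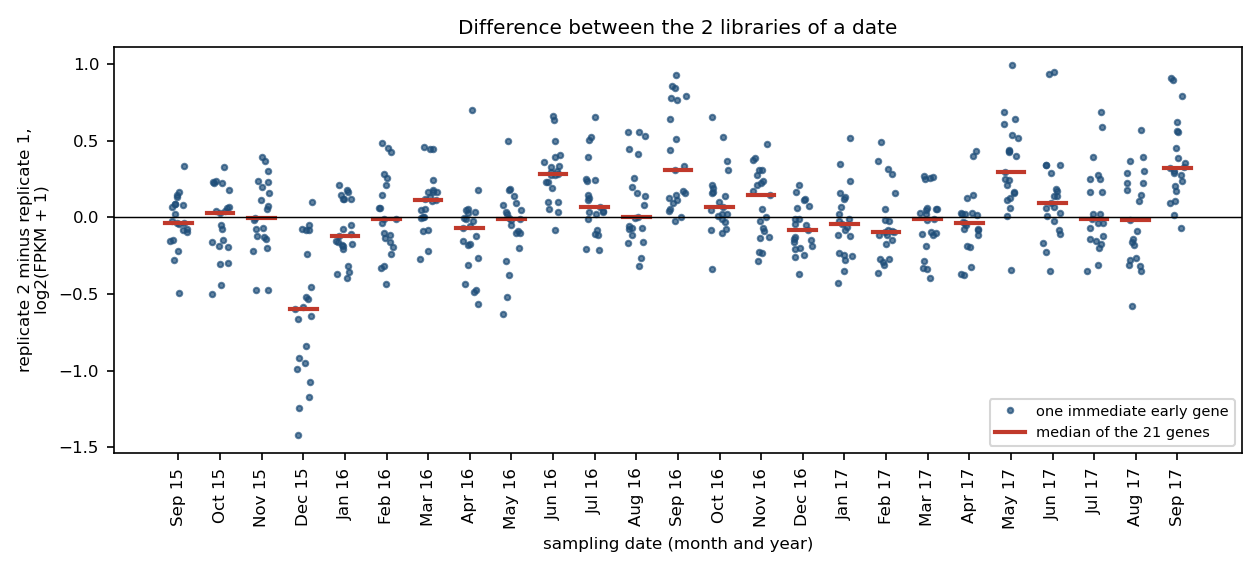
Difference between the 2 libraries of each date, replicate 2 minus replicate 1 on the log2(FPKM + 1) scale, for the 21 genes (points) with their median (bar). The December 2015 points lie almost all below 0, where replicate 1 exceeded replicate 2 by a median of 0.60, and those of June 2016, September 2016, May 2017 and September 2017 lie almost all above it.

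Regressing these within-date differences on that of fos LOC101167759, the fos row with the highest mean, gave a positive slope in 19 of the other 20 genes, where 52.6% of all genes had a positive slope. By limma, 0 of the 20 passed at an adjusted p under 0.05, as did 0.00606% of all genes, and 12 of the 20, all positive, had an unadjusted p under 0.05, where 2.40% of all genes did with a positive slope. The steepest were npas4 (1.55 ± 0.36 per log2 unit of fos, adjusted p = 0.366), ier2 (1.54 ± 0.45, adjusted p = 0.911), egr1 LOC101160576 (1.41 ± 0.40, adjusted p = 0.785) and egr1 (1.33 ± 0.32, adjusted p = 0.366). The seasonal genes jun LOC101174822 (-0.20 ± 0.37) and jun (0.05 ± 0.28) were at the other end. With egr1 in place of fos, 3 of the 20 passed, where 0.0788% of all genes did with a positive slope. They were fosb (0.92 ± 0.17, adjusted p = 0.0185), egr1 LOC101160576 (0.89 ± 0.16, adjusted p = 0.0159) and junb LOC101164062 (0.61 ± 0.12, adjusted p = 0.0328).

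Outside the 21 genes, the single call on fos was LOC101175670, described as an SH3 domain-binding glutamic acid-rich-like protein (1.57 ± 0.27, adjusted p = 0.0435). The genes with the next smallest p included irs2, insulin receptor substrate (1.01 ± 0.24), raver1 (0.85 ± 0.21), dcaf1 (0.60 ± 0.15), mfsd14a (0.59 ± 0.16) and the nuclear receptor gene nr4a3 (0.99 ± 0.27). With negative slopes came the amino acid transporter gene slc1a5 (-1.10 ± 0.23) and pomc, the prohormone gene of pituitary corticotropes (-1.44 ± 0.35). None of these passed (adjusted p = 0.181 to 0.601). None of the 48 other immediate early genes or of the genes of the other 6 lists passed.

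Across dates, with the annual curve in the model, 0 of the 20 genes passed on fos LOC101167759, against 0.0485% of all genes, with 6 at an unadjusted p under 0.05, where 12.1% of all genes were. The closest was nr4a1 (1.27 ± 0.28, adjusted p = 0.0995), which passed without May 2017 replicate 2 (1.39, adjusted p = 0.0269). The genes called included dusp5, a MAP kinase phosphatase gene of the early response (1.08 ± 0.14, adjusted p = 0.000569), prr18 (1.02 ± 0.14, adjusted p = 0.000692), the chemokine gene cxcl12 (0.86 ± 0.15, adjusted p = 0.0326) and, with a negative slope, gprin1 (-0.69 ± 0.13, adjusted p = 0.0391). With egr1 in place of fos, 8 of the 20 passed with a positive slope, where 2.23% of all genes did. The steepest were egr1 LOC101160576 (0.99 ± 0.08, adjusted p = 1.71e-08), c-fos (0.87 ± 0.09, adjusted p = 1.01e-05), npas4 (0.56 ± 0.09, adjusted p = 0.00198) and egr1 LOC101169519 (0.53 ± 0.08, adjusted p = 0.00122). The others were nr4a1, ier2, junb LOC101164062 and jund.

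The genes whose date means were most like those of fos LOC101167759 were dusp5 (Pearson r = 0.866 over 25 dates), septin-2 (LOC101157973, 0.847), nrf1 (0.836), G-protein coupled receptor 3 (LOC101175249, 0.823) and dnajc5g (0.816). No other of the 21 genes was among these, and their own r ranged from -0.55 for jun LOC101174822 to 0.566 for ier2 LOC105354577. For egr1 the 3 most alike genes were themselves members, egr1 LOC101160576 (0.878), c-fos (0.863) and egr1 LOC101169519 (0.797). For jun LOC101174822 the 5 most alike were other genes, with chtop at 0.948, and among the 21 klf2 (0.934) and jun (0.875) came closest. These correlations describe dates that share libraries and season.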

How the data were processed

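The authors deposited FPKM values for 23455 genes in 50 libraries. Poly-T beads were used to purify mRNA for paired-end, strand-specific sequencing, per the labels' protocols. Bowtie2 2.2.5 and RSEM 1.2.12 are named, without a role, per the submitters' processing notes. No source used here gives the genome build or the read counts, hence no coordinates, counting intervals or detection limits are printed.

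From the deposited FPKM, log2(FPKM + 1) was averaged over the 2 libraries of a date. Genes averaging 1 FPKM or more (16493) were fitted with limma 3.58.1 (R 4.3.3) with a variance trend and Benjamini-Hochberg adjustment over all genes, at a threshold of 0.05. Differences on this scale understate changes of low genes. Seasonal contrasts used 4 blocks of 3 months over all 25 dates, and the years were compared with calendar month as a block, without September 2015. The fits were also run on simulated data in which genes and dates varied independently. Those runs do not cover genes that vary together or months that are correlated, and their outcome is not given here. The lists covered other immediate early genes, upstream signalling, corticosteroid-responsive genes and markers of neurons, microglia, endothelium and erythrocytes, with 119 genes matched by their descriptions. All 21 genes are named whatever their result, and up to 4 genes of a list or up to 8 of a tracking fit by smallest p. The members, lists and tests were chosen with earlier results of these data known, and genes named beyond the rule were chosen after their values were seen.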

Additional observations from a re-analysis of the deposited data

Results flagged for a closer look

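A date was marked where its mean lay far from the other dates of its season, by Dixon's test. Of 84 gene and season groups, 10 held such a date, where chance gives about 5% of independent groups. These groups share dates, and many of the genes varied together, so the count is no test of an excess. In summer, June 2016 stood high in c-fos, at 11.3 FPKM against 4.20 to 4.74 on the other dates, and in egr1 LOC101160576, at 8.33 FPKM against 2.66 to 3.52. July 2016 stood high in junb LOC101169770, at 3.00 FPKM against 1.73 to 2.19. In winter, December 2015 stood high in fos LOC101165186, at 8.55 FPKM against 5.28 to 6.25, and January 2016 low in ier2, at 5.12 FPKM against 12.9 to 16.1. On falling days, October 2015 stood low in c-fos, at 1.52 FPKM against 4.28 to 4.96, and in junb LOC101164062, at 33.9 FPKM against 49.8 to 64.8. September 2015 stood high in nr4a1, at 6.91 FPKM against 2.27 to 3.73. On rising days, April 2016 stood low in fos LOC101167759, at 7.12 FPKM against 10.1 to 11.6, and March 2016 high in ier2, at 24.2 FPKM against 12.9 to 16.1.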

How the results depend on the processing

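The settings tried were 2 scalings, a pseudocount of 0.1, other filters, no variance trend, libraries kept apart, date as a random effect, the replicate block, dates from July 2016, a step term, other months and each library left out. Of 1753 values under settings other than a left-out library, 1635 kept their direction and their side of the threshold, and of 8300 with a library left out, 8202 did. Of the values that changed sign, 0 of 124 had passed at first. The annual and summer minus winter counts of the 21 genes were within 1.5 times under every setting run, at 12 to 13 and 14 to 14 with a library left out.

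With libraries as separate samples, which treats both libraries of a date as independent, falling minus rising days gave 8 of the 21 genes (6951 of all), the years 8 (5984), the 6-month wave 3 (4565), the curve difference 9 (3248) and between-date tracking 5 (1266). With date as a random effect the curve difference gave 2 of the 21 (517 of all) and between-date tracking 153 of all. The year comparison gave 0 of the 21 under quantile normalization and under median ratio scaling, the 6-month wave 1 with a step at July 2016, and 121 of all genes from July 2016 on. The curve difference gave 0 genes in all with no filter, 3 with a minimum of 5 FPKM and 8 with no variance trend. Within-date tracking gave 0 genes in all under either scaling, a pseudocount of 0.1, a minimum of 5 FPKM, dates from July 2016 and fos LOC101165186 as predictor, and 2 with no filter. With egr1 as predictor it gave 13 in all (3 of the 20), and between-date tracking 903 (8 of the 20). Between-date tracking gave 1 from July 2016 on, and 1229 with fos LOC101165186, a predictor chosen after seeing the data. With a library left out, the year comparison gave 0 to 1 of the 21, the curve difference 0 to 27 genes in all, within-date tracking 0 to 1 in all and between-date tracking 2 to 18 in all and 0 to 1 of the 20.

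The deviations of same-numbered libraries correlated little between dates, at -0.114 to 0.138 (median 0.01, 8 of 276 date pairs above 0.1). An effect of the replicate number limited to a small set, such as the 21 genes, was not tested by these correlations. With the replicate block and date as a random effect, the years gave 2 of the 21 genes (egr1 and jun LOC101160956), the curve difference 2 (547 of all) and between-date tracking 14 of all, and within-date tracking with the block gave 0. The annual curve of junb LOC101169770 missed the threshold (adjusted p = 0.0544), and fosb (adjusted p = 0.0332) and the falling minus rising difference of fos LOC101167759 (-0.30, adjusted p = 0.0351) passed. With the block and without September 2015, signs changed in the falling minus rising differences of egr1 (-0.12) and npas4 LOC101171356 (-0.0172). September 2015 was the highest falling date of both, at 26.79 and 1.92 FPKM. Signs also changed in the within-date slope of jun LOC101160956 (-0.0568) and the between-date slope of dusp1 (0.0494).

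Other sign changes were near 0 or in genes that had not passed, and the cause was not tested. From July 2016 on, summer minus winter was -0.28 in c-fos, -0.0605 in egr1 LOC101169519, -0.11 in egr1 LOC101160576 and -0.13 in nr4a1. Falling minus rising was -0.25 in egr1, -0.23 in egr1 LOC101169519 and -0.16 in nr4a1, the within-date slope of jun was -0.15, and between-date slopes were -0.0783 in fos LOC101165186, -0.0951 in jund LOC111949028 and 0.0262 in dusp1. Without June 2016 and January 2016, summer minus winter of c-fos was -0.0902. With a step at July 2016, ier2 LOC105354577 was at 0.0226 for summer minus winter and 0.0195 for falling minus rising, and egr1 at -0.0899 for the second of these. Scaling put egr1 at -0.0308 (quantile) and -0.0367 (median ratio) for falling minus rising, junb LOC101169770 at 0.0566 and 0.0299 for the years, and the between-date slope of dusp1 at 0.0947 and 0.135. A pseudocount of 0.1 put the last 2 at 0.0026 and 0.0061. With egr1 as predictor, within-date jun LOC101174822 was at 0.0947, and between-date slopes were -0.0719 in fos LOC101165186, -0.037 in jun, -0.0186 in npas4 LOC101171356 and 0.0913 in dusp1. With fos LOC101165186 as predictor, within-date slopes were -0.035 in c-fos, -0.18 in jun LOC101160956, 0.39 in jun LOC101174822 and -0.14 in egr1 LOC101160576. Between-date slopes were then -1.36 in c-fos, -0.16 in jun LOC101160956, 0.0793 in jun LOC101174822, -0.50 in junb LOC101164062, -0.76 in egr1, -1.20 in egr1 LOC101160576, -0.56 in npas4 and -0.13 in ier2 LOC105354577. Leaving out each library in turn changed the sign of 9 of the members' values in at least 1 of the 50 fits. The summer minus winter difference of egr1 ranged from -0.0857 to 0.0723. The falling minus rising difference ranged from -0.0361 to 0.0369 in egr1 and from -0.105 to 0.0283 in ier2 LOC105354577. The second minus first year difference of junb LOC101169770 ranged from -0.0367 to 0.0272. Within-date slopes ranged from -0.075 to 0.183 in jun LOC101160956, from -0.638 to 0.0497 in jun LOC101174822 and from -0.121 to 0.178 in jun. Between-date slopes ranged from -0.152 to 0.0003 in jun LOC101174822 and from -0.106 to 0.124 in dusp1.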
